A study of Homo sapiens with 18 samples.

Results

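The 10 genes described here encode the enzymes, matrix proteins, transporters and receptors of the melanosome, the organelle in which pigment cells make and store melanin. They were chosen by symbol, as TYR, TYRP1, DCT, PMEL, MLANA, SLC24A5, SLC45A2, OCA2, GPR143 and TRPM1, and make up 10 of the 58870 genes in the count table. Their RNA was measured in 18 RNA-seq libraries of the human melanoma cell lines WM164, SKMEL28 and A375, grown in culture. Cells of each line carried a lentiviral vector that overexpressed either MAFG, a small MAF transcription factor, or green fluorescent protein (GFP) as the control, with 3 libraries for each of the 6 combinations of line and vector. MAFG carried a Myc-DDK tag, expression in both arms was driven by the EF1α promoter, and transduced cells were selected with blasticidin, so that the GFP cells share the vector and the selection with the MAFG cells. The labels do not say whether the 3 libraries of a group came from separate cultures. P-values therefore measure the spread between these libraries, which may be technical.

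Melanin is made from tyrosine. Tyrosinase (TYR) carries out the rate-limiting oxidation, and the related enzymes dopachrome tautomerase (DCT) and TYRP1 act on later intermediates of brown-black eumelanin. PMEL forms the amyloid fibrils on which melanin is laid down, and MLANA binds PMEL and is needed for its maturation. SLC24A5 is a potassium-dependent sodium-calcium exchanger of the pigment cell, and SLC45A2 and OCA2 set the pH of the melanosome. GPR143 is a receptor of the melanosome membrane that limits melanosome size, and TRPM1 is a cation channel whose gene also holds the microRNA gene MIR211. Most of these genes are textbook targets of MITF, the master transcription factor of melanocytes, which binds a short DNA element called the M-box.

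The starts of 8 of the 10 genes had promoter sequences in the RefSeq table (GRCh38.p14), with 10 promoters in all, since DCT and TRPM1 have alternative starts. The M-box core CATGTG, searched on both strands (CACATG on the other strand), was present in 8 of these 10 promoters of 300 bases and in 7 of the 8 genes, against 11.1% of 35116 human promoters of the same length. The longer form TCATGTG, which contains the core, was present in TYR, TYRP1, DCT, SLC24A5 and GPR143, against 2.92% of all promoters. TYR and MLANA are shown over the 250 bases before their start, on the + strand, because TYR holds the core at 2 places and MLANA, the gene with the largest fall in WM164 cells, at none. Capitals mark the core.
TYR, chr11:89177625-89177874: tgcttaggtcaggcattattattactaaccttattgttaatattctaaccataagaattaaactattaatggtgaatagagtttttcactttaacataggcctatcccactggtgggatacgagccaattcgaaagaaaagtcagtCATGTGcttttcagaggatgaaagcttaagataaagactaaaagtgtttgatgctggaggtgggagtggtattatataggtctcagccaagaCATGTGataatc
MLANA, chr9:5890639-5890888: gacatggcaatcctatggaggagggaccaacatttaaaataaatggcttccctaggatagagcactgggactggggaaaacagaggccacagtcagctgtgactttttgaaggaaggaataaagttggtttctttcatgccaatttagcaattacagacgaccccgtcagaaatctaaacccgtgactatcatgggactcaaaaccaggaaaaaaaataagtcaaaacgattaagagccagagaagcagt

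The other 6 genes with the core are shown with 20 bases on each side of it, read along the gene's own strand, so that the surroundings of the core can be compared between genes that changed by different amounts.
TYRP1, chr9:12693221-12693266, + strand: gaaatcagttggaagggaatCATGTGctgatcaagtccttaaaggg
TYRP1, chr9:12693354-12693399, + strand: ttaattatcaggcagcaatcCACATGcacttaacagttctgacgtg
DCT, chr13:94479872-94479917, - strand: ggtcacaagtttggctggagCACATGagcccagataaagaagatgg
DCT, chr13:94479791-94479836, - strand: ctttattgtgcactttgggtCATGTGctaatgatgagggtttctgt
GPR143, chrX:9765883-9765928, - strand: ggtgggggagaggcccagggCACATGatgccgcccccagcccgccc
GPR143, chrX:9765855-9765900, - strand: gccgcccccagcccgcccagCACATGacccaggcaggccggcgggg
OCA2, chr15:28099443-28099488, - strand: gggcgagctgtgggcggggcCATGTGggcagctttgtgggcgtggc
SLC24A5, chr15:48120955-48121000, + strand: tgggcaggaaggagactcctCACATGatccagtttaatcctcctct
TRPM1, chr15:31101756-31101801, - strand: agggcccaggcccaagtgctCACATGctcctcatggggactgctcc
TRPM1, chr15:31161143-31161188, - strand: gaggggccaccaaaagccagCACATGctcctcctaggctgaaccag

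These matches are letters in a window and not measured binding sites. SLC24A5, which changed least in WM164 cells, holds the longer form as TYR, DCT and GPR143 do. The E-box CACGTG (7.26% of all promoters) and the AP-1 element TGAGTCA (4.95%), each searched on both strands, were in none of the 10 promoters. The small MAF element TGCTGA, also searched on both strands, was in the promoters of TYRP1 and SLC24A5 and in 17.3% of all promoters.

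In GFP cells, WM164 and SKMEL28 expressed most of the 10 genes and A375 expressed almost none of them. In bulk libraries, fewer cells that express a gene and less RNA per cell cannot be told apart. Levels are given as CPM, the counts scaled to library sizes normalised over all 18 libraries, and comparisons between genes use the deposited TPM, which is corrected for length. In WM164 GFP cells the order by TPM was PMEL (343 ± 66.8, SD, n = 3 libraries), DCT (192 ± 34.8), MLANA (120 ± 32.3), SLC24A5 (57.3 ± 8.93), TYR (44.7 ± 9.51), TRPM1 (23.7 ± 5.48), GPR143 (17.2 ± 2.92) and SLC45A2 (16.4 ± 3.23), with TYRP1 and OCA2 below 1 in every library. The libraries of SLC24A5 and TYR, of TRPM1 and GPR143, and of GPR143 and SLC45A2 overlapped, so these neighbours are not ordered beyond their spread. In SKMEL28 GFP cells the order was PMEL (892 ± 73.8 TPM), MLANA (276 ± 16.1), DCT (139 ± 9.79), TYR (80.3 ± 4.79), TRPM1 (70.3 ± 8.90), SLC24A5 (64.3 ± 2.34), GPR143 (50.5 ± 3.90), SLC45A2 (25.5 ± 1.86), TYRP1 (25.1 ± 3.66) and OCA2 (18.1 ± 2.36). There the libraries of TYR and TRPM1, of TRPM1 and SLC24A5, and of SLC45A2 and TYRP1 overlapped.

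**Figure D1:**
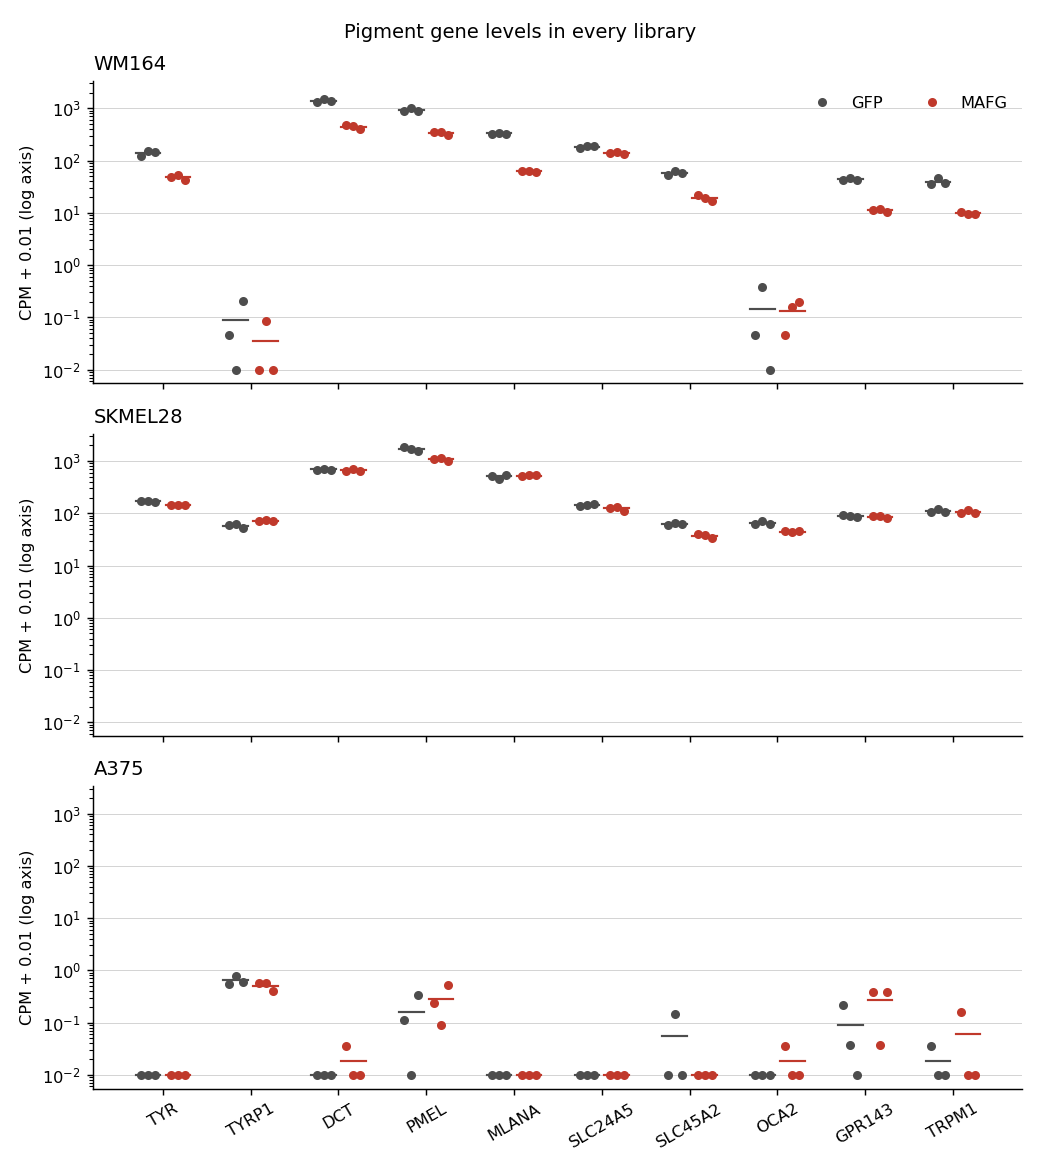
Level of each gene in every library on a log axis of CPM + 0.01, in 1 panel per line, with points for the 3 GFP (grey) and 3 MAFG (red) libraries and a bar at their mean. In WM164 the MAFG points of 8 genes lie below all GFP points, in SKMEL28 the shifts are small, and in A375 every point lies below 1 CPM.

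WM164 and SKMEL28 differed most in TYRP1 and OCA2, the genes of an enzyme and a transporter of the eumelanin pathway. TYRP1 had 1, 0 and 5 counts in the WM164 GFP libraries and 1754, 1271 and 1522 counts in the SKMEL28 GFP libraries. OCA2 had 1, 11 and 0 counts in WM164 GFP and 1860, 1454 and 1845 counts in SKMEL28 GFP. WM164 GFP cells thus carried next to no transcripts of these genes, and both passed the test of the difference between lines, which was made in a single edgeR model of all 18 libraries with Benjamini-Hochberg adjustment over 18767 genes (adjusted p = 3.05e-16 for TYRP1 and 5.67e-14 for OCA2).

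The other differences between the GFP cells of WM164 and SKMEL28 were smaller, and in all 9 of the 10 genes passed, against 56.8% of all tested genes in either direction. DCT was higher in WM164 (log2 difference 1.01, SE 0.08, adjusted p = 3.65e-09, edgeR), at 1299, 1499 and 1393 CPM against 688, 710 and 688 CPM in SKMEL28. SLC24A5 was also higher in WM164 (0.35, SE 0.08), although on the TPM scale the difference was -0.18 while the median of all genes was at -0.42. TRPM1 (-1.49, SE 0.14), GPR143 (-1.02, SE 0.16), PMEL (-0.87, SE 0.15), MLANA (-0.62, SE 0.07) and TYR (-0.27, SE 0.09) were lower in WM164. The call for TYR was lost without the WM164 GFP library 1 (-0.18, adjusted p = 0.120, edgeR), without the SKMEL28 GFP library 1 (adjusted p = 0.0639, edgeR) and without the SKMEL28 GFP library 2 (adjusted p = 0.0510, edgeR). SLC45A2 did not pass (-0.09, 95% confidence interval -0.39 to 0.21, adjusted p = 0.624, edgeR). On the log2(TPM + 1) scale it passed as lower in WM164 (-0.62, adjusted p = 0.00225, limma), with the median of all genes at -0.42.

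In A375, TYR, MLANA and SLC24A5 had 0 counts in all 6 libraries, and DCT and OCA2 had 1 count in 1 MAFG library. With 3 counts in a library as the floor, TYR was at least 1689-fold higher in WM164 GFP and at least 2031-fold higher in SKMEL28 GFP than in A375 GFP cells. The bounds were 3971-fold and 6097-fold for MLANA, 16694-fold and 8309-fold for DCT, and 2189-fold and 1715-fold for SLC24A5. PMEL had 0 to 22 counts, GPR143 0 to 16, TRPM1 0 to 6 and SLC45A2 0 to 5 counts in the A375 libraries. These floors and bounds cover counting error only.

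TYRP1 was the exception in A375, with 21, 28 and 21 counts in the GFP libraries and 22, 21 and 17 counts in the MAFG libraries, or 0.395 to 0.761 CPM over both groups. It was the gene of the 10 that passed edgeR's count filter there. It was higher in A375 GFP than in WM164 GFP cells by 3.06 on the log2 scale (adjusted p = 1.79e-05, edgeR). The difference missed the threshold on the log2(TPM + 1) scale (adjusted p = 0.0517, limma).

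All 8 tested genes were lower with MAFG than with GFP in WM164, and the response in SKMEL28 was mixed. MAFG itself was higher in each MAFG library than in each GFP library of the same line, at 47.8 to 56.0 against 23.0 to 28.8 CPM in WM164, 35.8 to 38.9 against 20.1 to 26.2 CPM in SKMEL28 and 37.8 to 56.3 against 23.7 to 32.7 CPM in A375. It passed the test in WM164 (log2 fold change 1.04, adjusted p = 6.37e-08, edgeR) and SKMEL28 (0.64, adjusted p = 1.28e-04, edgeR) but not in A375 (0.80, adjusted p = 0.0655, edgeR). Tests within a line used edgeR's quasi-likelihood test on the counts of the line's own 6 libraries. Rose and fell are used for an adjusted p of 0.05 or less (Benjamini-Hochberg over all tested genes of the line), and differential expression for genes that also changed more than 2-fold.

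In WM164, all 8 tested genes fell, against 15.6% of 15919 tested genes, and 7 of them fell more than 2-fold, against 2% of the tested genes. Their median log2 fold change was -1.61, and the median of all tested genes was -0.00. In all 8, every MAFG library was below every GFP library, as in 20.8% of the tested genes. TYRP1 (0 to 5 counts) and OCA2 (0 to 11 counts) were too low to be tested in this line.

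MLANA had the largest fall of the 8 tested genes. It was at 325, 343 and 329 CPM in the WM164 GFP libraries and at 62.5, 64.7 and 61.1 CPM in the MAFG libraries. The groups lay far apart, with a 5.30-fold fall (log2 fold change -2.41, SE 0.06, adjusted p = 1.40e-15, edgeR). PMEL, the fibril protein that MLANA binds, was at 884, 1033 and 878 CPM with GFP and at 351, 360 and 308 CPM with MAFG. It fell 2.74-fold (-1.46, SE 0.07, adjusted p = 2.66e-11, edgeR), the smallest estimate of the 7 genes that fell more than 2-fold, although it lay inside the confidence interval of TYR (-1.73 to -1.38). CDK2, a cell cycle kinase gene that overlaps PMEL in the other orientation, fell too (-0.88, SE 0.06, adjusted p = 3.04e-09, edgeR). Whether reads were assigned by strand is not given in the sources used here, so reads from the overlap of PMEL and CDK2 cannot be told apart. KIAA2026, on the strand opposite to MLANA, fell by 0.24 on the log2 scale.

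Both tested enzymes of melanin synthesis fell in WM164. TYR was at 125, 153 and 147 CPM with GFP and at 49.3, 53.0 and 42.2 CPM with MAFG. Each MAFG library was below each GFP library, and the fall was 2.94-fold (log2 fold change -1.55, SE 0.09, adjusted p = 1.31e-10, edgeR). DCT, the gene with the highest CPM of the 10 in this line, went from 1299, 1499 and 1393 CPM to 476, 463 and 405 CPM, a 3.12-fold fall (-1.64, SE 0.07, adjusted p = 3.06e-12, edgeR). The confidence interval of DCT (-1.78 to -1.50) overlapped that of TYR. TYRL, a truncated copy of TYR, had 0 counts in every library.

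The transporters SLC45A2 and SLC24A5 did not fall alike. SLC45A2 was at 52.4, 62.3 and 59.1 CPM with GFP and at 22.2, 19.5 and 16.8 CPM with MAFG, a 2.98-fold fall (log2 fold change -1.57, SE 0.10, adjusted p = 6.48e-10, edgeR). SLC24A5 was at 171, 189 and 190 CPM with GFP and at 140, 144 and 135 CPM with MAFG. These groups did not overlap either, but the fall was 1.31-fold (-0.39, SE 0.06, adjusted p = 3.85e-05, edgeR), and its confidence interval (-0.51 to -0.27) lay apart from those of the other 7 genes. On the log2(TPM + 1) scale the change of SLC24A5 was -0.19 (adjusted p = 0.337, limma), while the median of all genes was at 0.14. MYEF2, which overlaps SLC24A5 on the opposite strand, had 3 to 1763 counts over the libraries.

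The receptor and channel genes were among those that fell most. GPR143 was at 42.2, 45.6 and 43.1 CPM with GFP and at 11.6, 12.1 and 10.3 CPM with MAFG, a 3.86-fold fall (log2 fold change -1.95, SE 0.09, adjusted p = 8.90e-12, edgeR). TRPM1 was at 35.9, 45.9 and 36.5 CPM with GFP and at 10.6, 9.35 and 9.42 CPM with MAFG, a 4.03-fold fall (-2.01, SE 0.11, adjusted p = 7.49e-11, edgeR). Both genes kept their GFP and MAFG libraries well apart. TBL1X, on the strand opposite to GPR143, rose by 0.24 on the log2 scale. MIR211, inside TRPM1, had 0 counts in every library, so the microRNA was not measured here.

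**Figure D2:**
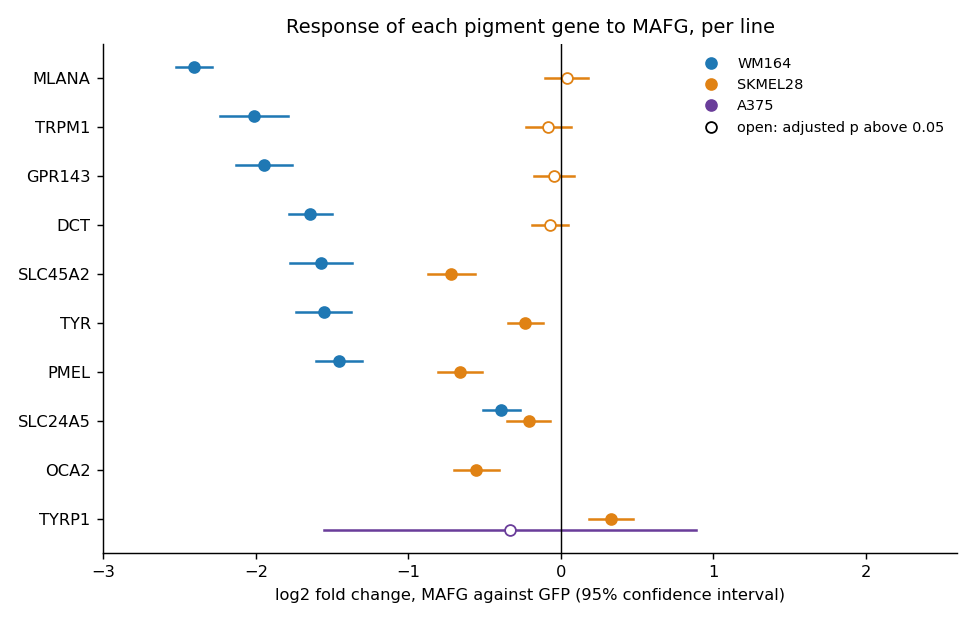
Log2 fold change of MAFG against GFP for each gene and line, with bars for the 95% confidence interval and open points for an adjusted p above 0.05. In WM164 (blue) 7 genes lie between -2.41 and -1.46 and SLC24A5 at -0.39, in SKMEL28 (orange) the genes lie between -0.72 and 0.33, and TYRP1 in A375 (purple) has a wide interval around -0.33.

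In SKMEL28, 5 of the 10 tested genes fell, against 15.3% of 15523 tested genes, and TYRP1 rose, against 14.6% of the tested genes. None fell or rose more than 2-fold, against 2.98% and 1.76% of the tested genes, and 4 did not pass. Their median log2 fold change was -0.15, against -0.01 for all tested genes, and the 10 ranged from -0.72 to 0.33.

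SLC45A2 fell most in SKMEL28, from 58.5, 64.1 and 62.5 CPM with GFP to 39.9, 38.2 and 34.2 CPM with MAFG (log2 fold change -0.72, SE 0.07, adjusted p = 2.35e-06, edgeR). PMEL fell from 1823, 1696 and 1572 CPM to 1105, 1130 and 982 CPM (-0.66, SE 0.07, adjusted p = 2.93e-06, edgeR), and CDK2 on the other strand was at -0.09 (adjusted p = 0.325, edgeR). OCA2, which could not be tested in WM164, fell from 62.0, 71.5 and 63.7 CPM to 45.8, 43.3 and 44.9 CPM (-0.55, SE 0.07, adjusted p = 1.77e-05, edgeR). In these 3 genes all MAFG libraries were below all GFP libraries, as in 22% of the tested genes of SKMEL28.

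TYR and SLC24A5 fell slightly in SKMEL28. TYR went from 172, 172 and 165 CPM to 146, 142 and 145 CPM (log2 fold change -0.23, SE 0.05, adjusted p = 0.00355, edgeR). SLC24A5 went from 139, 142 and 149 CPM to 127, 133 and 112 CPM (-0.21, SE 0.07, adjusted p = 0.0253, edgeR). The call for SLC24A5 was lost without the GFP library 3, the MAFG library 1 or the MAFG library 3 (-0.18, -0.23 and -0.14, adjusted p = 0.105, 0.0517 and 0.115, edgeR). In a single model of all 18 libraries, TYR, SLC24A5 and TYRP1 did not pass in SKMEL28 (adjusted p = 0.0956, 0.0836 and 0.140, edgeR).

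TYRP1 rose in SKMEL28, from 58.4, 62.5 and 52.5 CPM with GFP to 70.8, 74.3 and 72.4 CPM with MAFG (log2 fold change 0.33, SE 0.07, adjusted p = 0.00161, edgeR). All MAFG libraries were above all GFP libraries, as in 21.1% of the tested genes. On the log2(TPM + 1) scale TYRP1 was at -0.0040, where the median of all genes was at -0.14.

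The 4 genes with the largest estimated falls in WM164, MLANA, TRPM1, GPR143 and DCT, were those that did not pass in SKMEL28. The place of DCT among them is not settled. Its WM164 interval (-1.78 to -1.50) holds the estimates of SLC45A2 (-1.57) and TYR (-1.55), which fell in SKMEL28. MLANA was at 522, 460 and 548 CPM with GFP and at 508, 534 and 530 CPM with MAFG (log2 fold change 0.04, 95% confidence interval -0.10 to 0.18), and its sign turned on the log2(TPM + 1) scale (-0.10) and after leaving out GFP library 2 (-0.03). DCT was at 688, 710 and 688 CPM and at 645, 699 and 644 CPM (-0.07, interval -0.19 to 0.05). TRPM1 was at 108, 121 and 104 CPM and at 100, 114 and 101 CPM (-0.08, interval -0.23 to 0.07). GPR143 was at 93.4, 87.3 and 84.1 CPM and at 87.4, 87.0 and 81.9 CPM (-0.05, interval -0.18 to 0.08). The GFP and MAFG libraries overlapped in all 4 genes, and their intervals leave out falls of the size seen in WM164.

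The difference of the response between WM164 and SKMEL28 was tested in the model of all 18 libraries for the 8 genes tested in both lines. TYRP1 and OCA2, at 11 counts or fewer in every WM164 library, were left out. The difference passed for 7 of the 8, all with the larger fall in WM164, against 6.32% of 18767 genes in that direction. The difference of the log2 fold changes was -2.44 for MLANA (SE 0.10, adjusted p = 9.87e-11, edgeR), -1.93 for TRPM1 (SE 0.20), -1.90 for GPR143 (SE 0.23), -1.57 for DCT (SE 0.11) and -1.32 for TYR (SE 0.13). It was smaller for SLC45A2 (-0.85, SE 0.20, adjusted p = 0.00792, edgeR) and PMEL (-0.79, SE 0.21, adjusted p = 0.0139, edgeR), which also fell in SKMEL28. CDK2, on the strand opposite to PMEL, differed by the same amount (-0.79, SE 0.13, adjusted p = 2.29e-04, edgeR). SLC24A5 did not pass (-0.18, 95% confidence interval -0.41 to 0.06, adjusted p = 0.354, edgeR). On the log2(TPM + 1) scale PMEL (adjusted p = 0.167, limma) and SLC45A2 (adjusted p = 0.344, limma) missed the threshold, with the median of all genes at 0.26. The rise of MAFG itself had the larger estimate in WM164, and its difference between the lines did not pass (0.41, SE 0.20, adjusted p = 0.221, edgeR). That p is adjusted over all tested genes, and the MAFG libraries of the lines did not overlap in MAFG level. Equal MAFG levels in these lines are therefore not shown.

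In A375, edgeR's count filter left TYRP1 of the 10 genes, which had a log2 fold change of -0.33 with a 95% confidence interval from -1.55 to 0.88 (adjusted p = 0.997, edgeR). Of all 15779 tested genes in A375, 0.843% passed. This share depended on A375 MAFG library 1: without it 393 of 16368 tested genes passed, against 133 with all libraries. When any other A375 library was left out, 59 to 83 genes passed. DESeq2 gave adjusted p-values for GPR143, PMEL and TYRP1 in A375, and 0 of these 3 passed. For TYRP1, at 17 to 28 counts per library, a change of up to about the size of its interval was not detectable. The response was compared with that of A375 in the model of all 18 libraries for GPR143, PMEL, TRPM1 and TYRP1, the 4 genes with a count in both A375 groups, a limit set after the counts were seen. The A375 counts behind these comparisons are low and overlap between the vectors, at 8, 1 and 0 with GFP and 15, 1 and 16 with MAFG for GPR143 and at 4, 0 and 12 and 9, 3 and 22 for PMEL. GPR143, PMEL and TRPM1 failed the count filter in A375 alone and entered this model through the lines where they are high. Calls among them therefore give no result about a response in A375. In WM164 minus A375, 2 of the 4 passed as lower, against 4.69% of 18767 genes. SLC45A2, left out by the limit on counts, was at 2.05 (SE 1.32) there, and the other genes left out had negative estimates. GPR143 differed by -3.61 (SE 0.68, adjusted p = 0.00118, edgeR), with -5.86 when A375 GFP library 1 was left out and -1.65 on the log2(TPM + 1) scale. PMEL differed by -2.40 (SE 0.64, adjusted p = 0.0200, edgeR), with -1.26 on the log2(TPM + 1) scale and -3.78 without A375 GFP library 3. The call for PMEL was lost without A375 GFP library 1, GFP library 2 or MAFG library 3 (-2.21, -1.83 and -1.56, adjusted p = 0.0613, 0.0506 and 0.252, edgeR). TRPM1 (-4.06, adjusted p = 0.0620, edgeR) and TYRP1 (-1.17, adjusted p = 0.621, edgeR) did not pass, although TRPM1 passed with DESeq2 (adjusted p = 0.0115). In SKMEL28 minus A375, 0 of the 4 passed with edgeR, against 9.51% of genes in either direction, while 2 had an unadjusted p under 0.05 and 2 passed with DESeq2. The differences there were -1.71 for GPR143, -1.61 for PMEL, -2.14 for TRPM1 and 0.66 for TYRP1 (adjusted p = 0.133, 0.128, 0.358 and 0.253, edgeR). SOX10, a transcription factor that acts with MITF on pigment genes, rose in A375 from 6.93, 8.15 and 11.5 CPM to 142, 102 and 97.9 CPM (3.68, SE 0.21, adjusted p = 2.12e-05, edgeR). MITF was at 29.0, 27.1 and 29.7 CPM with GFP and at 29.4, 32.3 and 20.4 CPM with MAFG in A375 (-0.07, adjusted p = 0.997, edgeR). In the A375 libraries, each of the 10 pigment genes had at most 28 counts, also where SOX10 was higher.

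The falls were then set against the level of each gene in GFP cells. To keep the level and the fall apart, the level was read from GFP library 1 in TPM and the fall from the fit without that library, and no test was made, since the genes share their libraries and are few. In WM164 the rank correlation of the fall with the level was -0.21 over 8 genes (Spearman), and over the other held-out libraries and scales it ranged from -0.26 to -0.21. PMEL, the most abundant gene, and SLC45A2, the least abundant of the tested genes, fell by similar amounts (2.74-fold and 2.98-fold), and SLC24A5 fell less than TYR, its neighbour in level. In SKMEL28 the rank correlation was -0.04 over 10 genes, with -0.14 and 0.03 from the other held-out libraries and 0.02 with CPM per kilobase. Abundant PMEL and the low-level genes SLC45A2 and OCA2 fell side by side there, while MLANA at a high level and TYRP1 at a low level did not fall. Over so few genes, correlations of this size give no order of the falls by GFP level.

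**Figure D3:**
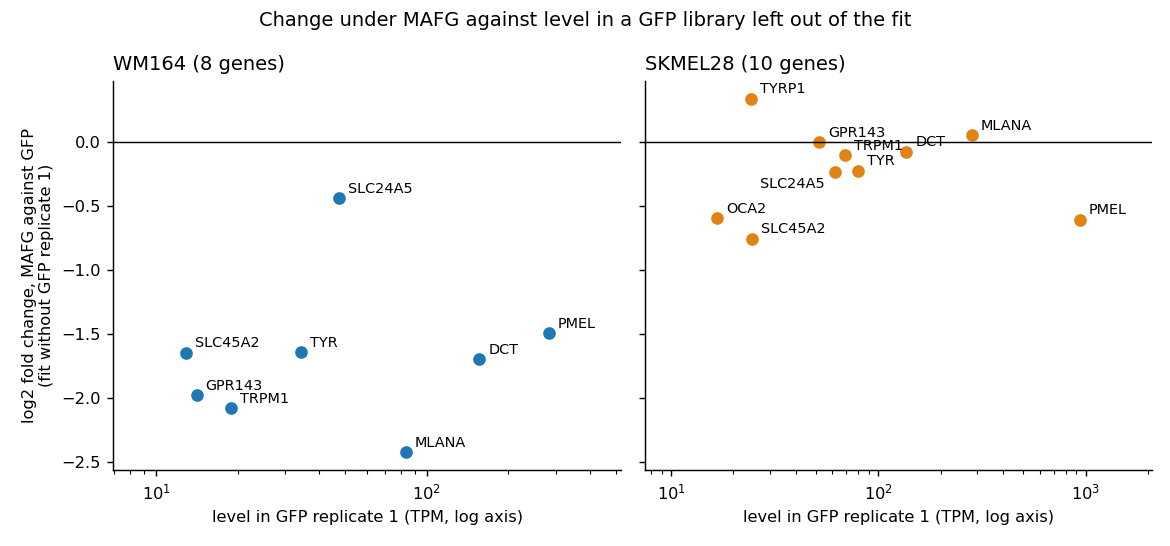
Log2 fold change of MAFG against GFP, fitted without GFP library 1, plotted against the TPM in that library on a log axis, for 8 genes in WM164 and 10 genes in SKMEL28. The rank correlation of fall and level is -0.21 in WM164 and -0.04 in SKMEL28, with SLC24A5 nearest to 0 in WM164 and PMEL, SLC45A2 and OCA2 lowest in SKMEL28.

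The 10 genes together made up 814 ± 162 TPM in WM164 GFP (SD, n = 3 libraries) and 323 ± 35.7 TPM in WM164 MAFG cells. In SKMEL28 the sum went from 1641 ± 90.7 to 1166 ± 95.5 TPM, and in A375 it was at 0.570 ± 0.257 and 0.567 ± 0.180 TPM. The sums of the GFP and MAFG libraries did not overlap in WM164 and SKMEL28, and an exact two-sided permutation test of 3 against 3 libraries cannot give a p below 0.1. The mixture of transcripts shifted along with the sum. In WM164, MLANA made up 14.6% of the sum with GFP and 7.40% with MAFG, and SLC24A5 went from 7.08% to 15.4%, moving from the fourth to the third most abundant of the 10 genes. In SKMEL28, PMEL went from 54.3% to 45.7% and MLANA from 16.9% to 22.2%. TPM values share a fixed total, and RN7SL1 and MT-ATP8 alone took 5.40% to 18.1% and 6.89% to 16.2% of it, so that a sum in TPM also moves with those abundant RNAs.

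**Figure D4:**
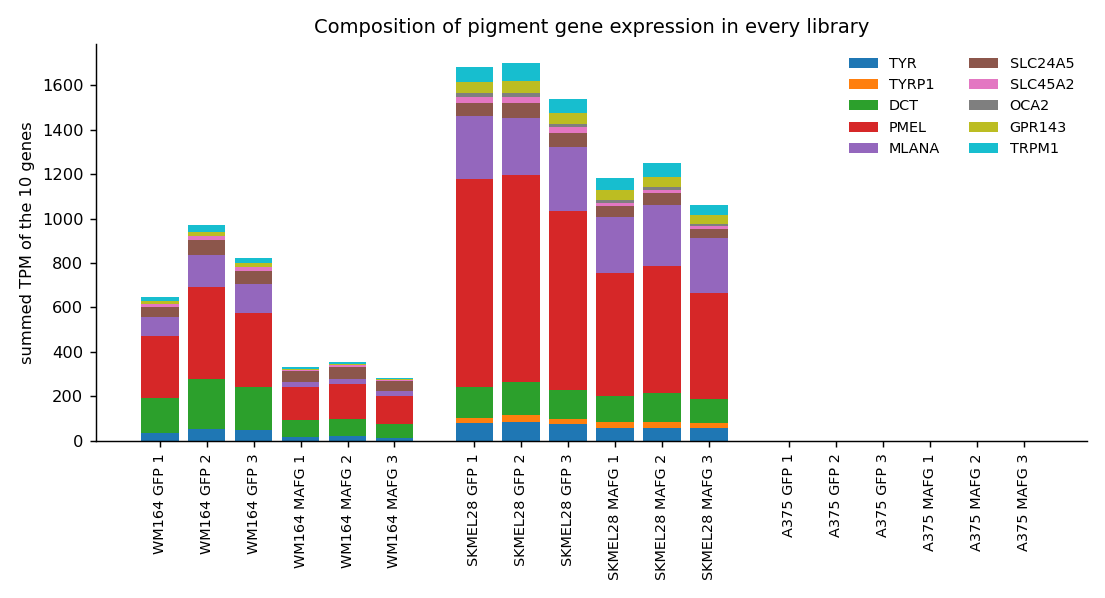
Summed TPM of the 10 genes in each of the 18 libraries, stacked by gene, with GFP and MAFG libraries side by side for each line. The bars reach 648 to 971 TPM in WM164 GFP and 283 to 353 TPM in WM164 MAFG, 1536 to 1701 and 1062 to 1250 TPM in SKMEL28, and below 1 TPM in A375.

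MITF was compared with its textbook targets library by library. MITF fell in WM164 from 422, 441 and 454 CPM to 280, 282 and 277 CPM (log2 fold change -0.65, SE 0.05, adjusted p = 1.55e-08, edgeR), and in SKMEL28 from 656, 639 and 649 CPM to 553, 561 and 579 CPM (-0.20, SE 0.05, adjusted p = 0.00967, edgeR). In WM164 the ratio of TYR, DCT, PMEL, MLANA, GPR143, SLC45A2 and TRPM1 to MITF was lower in every MAFG library than in every GFP library, as for 2.12% of the tested genes. SLC24A5 fell less than MITF (-0.39 against -0.65), so its log2 ratio to MITF was higher by 0.26 with MAFG. Since MITF itself fell, a gene without any change also has a higher ratio to it. The log2 ratio of SLC24A5 to the median of the other 7 genes was higher by 1.17, and the libraries overlapped in neither ratio. In SKMEL28 the ratio to MITF was lower in all MAFG libraries for PMEL, SLC45A2 and OCA2, as for 10.3% of the tested genes, and higher for TYRP1 (0.53), MLANA (0.24) and DCT (0.13). MITF fell there too (-0.20), so a higher ratio is again also met by a gene without any change. The share of all genes with a higher ratio to MITF was not computed in either line. Among the 36 ratios computed, the exact permutation p of those without overlap was 0.1, the smallest that 3 against 3 libraries allow (0.164 after Benjamini-Hochberg adjustment over the 36). SOX10 did not pass in WM164 (-0.04, adjusted p = 0.568, edgeR) or SKMEL28 (0.03, adjusted p = 0.740, edgeR).

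The lists of other pigment pathway genes had medians closer to 0 in WM164. Their counts are to be read against all tested genes, of which 15.6% fell and 16.2% rose in WM164 and 15.3% fell and 14.6% rose in SKMEL28. Of 12 regulators of pigmentation, 9 were tested in WM164, 4 fell and 1 rose, with a median of -0.29 against -0.00 for all genes. IRF4, which acts with MITF on the TYR enhancer, fell by 0.75 on the log2 scale, TFAP2A fell by 0.69, and LEF1, a WNT effector, rose (0.47). In SKMEL28, 3 of 9 regulators fell and 1 rose: MC1R, the melanocortin receptor, fell by 0.54, LEF1 fell by 0.27, and EDNRB, the endothelin receptor, rose (0.84). LEF1 passed in opposite directions, and the difference between the lines passed as well (0.74, adjusted p = 4.36e-05, edgeR).

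Of 21 genes for building and sorting melanosomes, all were tested in both lines. In WM164, 11 fell and 0 rose, with a median of -0.19, and RAB38, which delivers enzymes to the melanosome, fell most (-1.04), followed by DTNBP1 (-0.84), HPS4 (-0.80), RAB32 (-0.62) and CD63 (-0.58). In SKMEL28, 4 of the 21 fell and 1 rose, close to or below the shares of all tested genes (15.3% and 14.6%), with a median of -0.08: HPS6 (-0.71), BLOC1S3 (-0.49), LYST (-0.35) and RAB38 (-0.35) fell and HPS5 (0.30) rose. In A375, 0 of the 21 passed with edgeR and 0 with DESeq2, and 1 had an unadjusted p under 0.05 with edgeR. With 0.843% of all tested genes passing in A375, a count of 0 among 21 genes gives no result about this list. RAB38 and its close relative RAB32 also differed in response between WM164 and SKMEL28 (-0.69, adjusted p = 0.00698, and -0.66, adjusted p = 0.0157, edgeR).

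Among 10 genes for ions and redox state of the melanosome, 9 were tested in each line. In WM164, 5 fell and 0 rose, with the channel gene MCOLN3 (-0.97), the chloride transporter gene CLCN7 (-0.77) and the cystine transporter gene SLC7A11 (-0.62) lowest. In SKMEL28, 4 fell and 2 rose, with SLC7A11 far ahead (-1.99, SE 0.08, adjusted p = 5.01e-11, edgeR), while ATP7A (0.49), which supplies copper to tyrosinase, and ATP6AP2 (0.48) rose. SLC7A11 fell more in SKMEL28, whereas 7 of the 8 pigment genes compared fell more in WM164, and the difference passed (1.38, SE 0.14, adjusted p = 6.01e-07, edgeR).

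Of 15 close relatives of the 10 genes, 9 were tested in WM164, where 2 fell (SLC24A1, -0.50, and TRPM7, -0.32) and 3 rose, against 15.6% and 16.2% of all tested genes. Counts this small give no result about the relatives as a group. GPNMB, the relative of PMEL, rose in WM164 (0.23, SE 0.07, adjusted p = 0.0130, edgeR) and in SKMEL28 (0.37, SE 0.06, adjusted p = 1.11e-04, edgeR), lines in which PMEL fell. SLC24A3, the relative of SLC24A5, rose in WM164 (4.92, SE 0.43, adjusted p = 7.88e-08, edgeR), and TRPM8, the relative of TRPM1, rose (1.14, SE 0.07, adjusted p = 8.02e-10, edgeR). SLC24A3 was near the floor in WM164 GFP cells, where its log2 difference from A375 GFP cells had a large SE (4.66, SE 1.17). The size of its rise is therefore loose. In SKMEL28, 3 of 9 paralogs fell (TRPM4, -1.07, TRPM3, -0.81, and SLC45A4, -0.60) and GPNMB rose. In A375, 1 of the 8 tested paralogs passed, against 0.843% of all tested genes: TRPM8, which rose (8.02, SE 1.37, adjusted p = 0.0436, edgeR). That rise started from a very low level, since TRPM8 was 13.4 lower on the log2 scale in A375 GFP than in WM164 GFP cells.

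By their pattern over the 6 group means, the 5 genes most like the median of the 10 were LHFPL3-AS1 (root mean square difference 0.42 on the log2 CPM scale), TTYH2 (0.45), SNAI2 (0.52), SEMA6A (0.53) and QPCT (0.55). LHFPL3-AS1, a long noncoding RNA gene, went from 142 to 24.6 CPM in WM164, from 102 to 97.3 CPM in SKMEL28 and was at 0.0174 and 0 CPM in A375. QPCT, which encodes glutaminyl cyclase, went from 140 to 40.9 CPM in WM164 and from 313 to 207 CPM in SKMEL28. SNAI2 (-0.51), TTYH2 (-0.76) and SEMA6A (-0.80) fell less than 2-fold in WM164, where the median log2 fold change of the 8 tested pigment genes was -1.61. In SKMEL28, SEMA6A rose (0.19, adjusted p = 0.0158, edgeR), TTYH2 fell (-0.26) and SNAI2 did not pass (0.15, adjusted p = 0.0581, edgeR). The likeness is to a median taken over these same libraries and carries no test.

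The lines carried the marker genes of the melanocyte lineage to unequal degrees. SOX10 was at 1321 to 1429 CPM in WM164 GFP and 883 to 901 CPM in SKMEL28 GFP cells, far above its level in A375. S100B, a calcium-binding protein of the lineage, was at 204 to 223 CPM over all WM164 libraries, which did not separate by vector, and at 1.12 CPM or less in A375. In SKMEL28 it rose from 246 to 284 CPM with GFP to 398 to 416 CPM with MAFG (0.58, adjusted p = 5.16e-06, edgeR). PAX3, an activator of MITF, was at 9.19 to 13.4 CPM in A375, and fell in WM164 from 38.4 to 41.3 CPM with GFP to 29.7 to 33.6 CPM with MAFG (-0.30, adjusted p = 0.00581, edgeR). Markers of leukocytes summed to at most 1.05 CPM and those of endothelial cells to at most 1.03 CPM in any library. Markers of keratinocytes summed to 9.69 to 14.5 CPM with GFP and 7.54 to 8.29 CPM with MAFG in WM164, where KRT10 was the gene above 3 counts and fell (-0.61, adjusted p = 0.00244, edgeR) and KRT5 and KRT1 had 0 counts. In SKMEL28 the keratinocyte sum was 23.2 to 26.7 CPM with GFP and 28.5 to 29.8 CPM with MAFG, and KRT10 did not pass (0.19, adjusted p = 0.101, edgeR). The fibroblast sum was lower with MAFG in WM164 (12.1 to 12.7 CPM) than with GFP (19.99 to 20.34 CPM), where LUM fell (-0.997) and PDGFRB rose (3.05). PDGFRB rose from a low level. It was 5.01 lower on the log2 scale in WM164 GFP than in A375 GFP cells, where the whole fibroblast sum was at most 13.3 CPM. In SKMEL28 it was higher with MAFG (18.3 to 21.3 CPM) than with GFP (11.03 to 12.39 CPM), where LUM rose (0.77, adjusted p = 5.15e-05, edgeR). The part of these markers in the changes of the pigment genes was not tested. Library depth ranged from 20122172 to 39025042 counts, and SKMEL28 GFP library 2 was the shallowest.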

How the data were processed

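RNA-seq libraries of 18 samples were analysed, 3 for each of 6 groups, with groups and replicate numbers taken from the labels. According to the methods and the submitters' processing notes, the authors trimmed reads with cutadapt 1.8.1, aligned them to GRCh38 with STAR 2.7.7a and counted uniquely aligned reads per gene; RSEM 1.3.0 and DESeq2 are also named. The deposited counts are whole numbers per gene, not normalized, and for TPM the authors scaled each library to the same total before the values were deposited. The labels name a non-stranded library kit, the methods a stranded one. Counts were tested with edgeR 4.0.16 (TMM, filterByExpr, quasi-likelihood test) in R 4.3.3, in each line's 6 libraries, and differences between lines in a single model of all 18 libraries. The SE is the absolute log2 fold change divided by the square root of F, and adjusted p-values are Benjamini-Hochberg values over all tested genes. CPM values were scaled by TMM over all 18 libraries. Depth was 20122172 to 39025042 counts, and the median SE over all genes was 0.11 for WM164, 0.12 for SKMEL28 and 0.18 for A375. No library copied another within sampling noise, as mean chi-square values of 5.90 to 96.7 over 18 replicate pairs show. Of 58825 distinct gene identifiers without version suffix, 58472 matched GENCODE release 44, from which overlaps were taken. Promoters came from RefSeq (GRCh38.p14). Alternatives were other size factors, DESeq2 1.42.0, other count filters, a replicate block, all 18 libraries in a single model, limma 3.58.1 on log2(TPM + 1) or log2(TPM + 0.1), and each library left out. The scripts were tested on simulated data. Named are the 10 genes, MITF, SOX10, genes that overlap the 10, members of the pathway lists that passed and the 5 genes most alike in pattern. The 10 genes and the gene lists were chosen with earlier results of these data known. The authors' own comparisons were not used. A gene of the melanocyte marker list and the sum that includes it are not reported here.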

Additional observations from a re-analysis of the deposited data

Results flagged for a closer look

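The response to MAFG differed between WM164 and SKMEL28 cells for 7 of the 8 pigment genes tested in both lines, by the test of the difference itself in a single edgeR model of all 18 libraries with Benjamini-Hochberg adjustment. The difference of the log2 fold changes (WM164 minus SKMEL28) was -2.44 for MLANA, -1.93 for TRPM1, -1.90 for GPR143, -1.57 for DCT, -1.32 for TYR, -0.85 for SLC45A2 and -0.79 for PMEL. Each of the 7 kept its sign under every alternative tried, and PMEL and SLC45A2 missed the threshold on the log2(TPM + 1) scale. Against A375, GPR143 (-3.61) and PMEL (-2.40) passed as lower in WM164, at 0 to 22 counts in the A375 libraries. The call for PMEL was lost when A375 GFP library 1, GFP library 2 or MAFG library 3 was left out. Neither gene passed edgeR's count filter in A375 alone, so these calls give no result about a response there.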

How the results depend on the processing

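Of 866 alternative values for single genes, 821 kept their direction and their side of the threshold, and all falls in WM164 did so except SLC24A5 on both TPM scales (adjusted p = 0.337 and 0.343, limma). Signs turned for TYRP1 in SKMEL28 on log2(TPM + 1) and log2(TPM + 0.1) (-0.0040 and -0.0041), for MLANA in SKMEL28 on the same scales (-0.10 on each) and without GFP replicate 2 (-0.034; 0.096 without GFP replicate 3, the highest), and for SLC24A5 on log2(TPM + 1) in the difference of responses (0.18) and in the GFP level of WM164 against SKMEL28 (-0.18). TPM moved the median of all genes by 0.14 to 0.16 in WM164, by -0.14 to -0.17 in SKMEL28 and by -0.10 to -0.12 in A375. In SKMEL28, 3 of the 10 genes passed, all 3 lower, with all 18 libraries in a single model, against 6 passing and 5 lower in its own libraries, and 1 fell more than 2-fold on log2(TPM + 0.1), against 0. The rank correlation of fall and level was -0.26 with CPM per kilobase and -0.24 from GFP replicate 2 in WM164, and 0.018 with CPM per kilobase, -0.14 from GFP replicate 2 and 0.030 from GFP replicate 3 in SKMEL28. Against A375, 2 of the 4 genes compared passed in WM164 (1 to 3 with each library left out), and 0 of 4 passed in SKMEL28, against 2 with DESeq2, 2 without a count filter, 1 with the replicate block and 0 to 2 with each library left out. With a library left out, the difference from A375 of TYRP1 in WM164 ranged from -3.94 to 0.67 (0.051 on log2(TPM + 1)) and that of TRPM1 in SKMEL28 from -3.83 to 1.61. Causes were not tested. The replicate numbers did not pair the libraries, since deviations of libraries with the same number correlated at -0.04 to 0.03. With the replicate number as a block, 8 genes passed in WM164 and 6 in SKMEL28, as without it, as did 7 of 8 differences between them. Against A375, TRPM1 in WM164 and PMEL in SKMEL28 passed with the block and not without it. Low counts of the 10 genes limit A375, where edgeR's count filter left 1 of them at a depth of 32979834 to 39025042 counts.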
